A study of Mus musculus with 7 samples.

Results

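The polo-like kinase genes Plk1, Plk2, Plk3 and Plk4 were followed in haematopoietic stem cells (HSCs) of mice that had lost Mettl3, the enzyme at the core of the complex writing N6-methyladenosine (m6A) on mRNA. They were taken by symbol from the deposited table, in which 4 of 23038 genes carried these names. The set was chosen by name, but with the mutant and control RPKM of these same genes in view, so their levels are given as a description and no test was made on them. The question was how the mitotic kinases Plk1 and Plk4 and the stress-responsive kinases Plk2 and Plk3 stood in the mutant and control cells.

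The mutant cells came from Mx1-cre; Mettl3fl/fl mice (4 libraries), and the controls were littermates without Cre (3 libraries), all on the C57BL/6 strain and all adult. Every mouse, controls included, received pIpC, an analogue of double-stranded RNA, in 5 intraperitoneal doses of 10 µg, and was killed 10 days after the final dose. pIpC raises interferon, which switches on the Mx1 promoter in many cell types and not in blood cells alone, and whether the controls carried floxed alleles is not stated in the labels. Each library was made by Smart-seq2, a full-length cDNA method for small samples, from 150 sorted cells (CD150+ CD48- within the Lineage- Sca1+ cKit+ fraction), and read as paired 100-base ends. The table gives 1 RPKM value (reads per kilobase of gene model, relative to library size) for each gene and group, so the spread between mice is not known, no value has an SD, and no difference below has a replicate check. In such pooled cells, fewer cells that express a gene and less of its RNA per cell cannot be told apart.

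Polo-like kinases are serine/threonine kinases with a kinase domain at the amino end and polo boxes at the carboxyl end, through which they dock on partners, in the case of Plk1 mostly partners that another kinase has already phosphorylated. Plk1 acts at centrosomes, kinetochores and the midbody to drive entry into mitosis, spindle assembly and cytokinesis, and Plk4 starts the assembly of new centrioles. Plk2 and Plk3 were first described as early response genes, induced by serum and by fibroblast growth factor, and are also induced by DNA damage and other stress, in part through p53.

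Of the whole table, 14539 genes had reads in mutants, controls or both, and the other 8499 sat at a constant small offset. The smallest increments among low values, if each is 1 read, put the mutant libraries at 25.7 to 37.7 M reads and the control libraries at 19.6 to 31.1 M reads (M, megareads). Mettl3 itself was at 9.60 RPKM in mutants and 49.8 RPKM in controls, 19.3% of the control value. The 10 listed HSC markers were all read in both groups, with Kit at 39.9 RPKM in mutants and 67.4 RPKM in controls. Cd48, the marker the sort selects against, was at 4.04 RPKM in mutants and 5.33 RPKM in controls.

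The mitotic members were both higher in the mutant value and the stress-responsive members went opposite ways. Plk3 was 8.16-fold higher in mutants, Plk4 1.76-fold higher and Plk1 1.38-fold higher, whereas Plk2 was 2.41-fold lower. On the scale log2((mutant + 1) / (control + 1)), used below for all log2 values, with 1 RPKM added to both values so that low genes weigh less, these were 2.63 for Plk3, 0.72 for Plk4, 0.46 for Plk1 and -1.21 for Plk2. By a rule of size of at least 2-fold on that scale, 1 of the 4 members was higher and 1 lower, where 3.67% of genes with reads were higher, 3.47% lower and 7.14% apart in either direction. The genes with reads include 2957 below 1 RPKM in both groups, which cannot reach 2-fold on that scale and so lower the shares. Among the 6607 genes of at least 10 RPKM in 1 group, which include all 4 members, these shares were 3.36%, 2.47% and 5.83%. Plk3 and Plk4 reached that minimum in mutants only, so their entry into this set depended on the value that sets their ratio. Because the members were chosen with the contrast of mutants and controls known, nothing is read from the count of members past 2-fold.

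**Figure D1:**
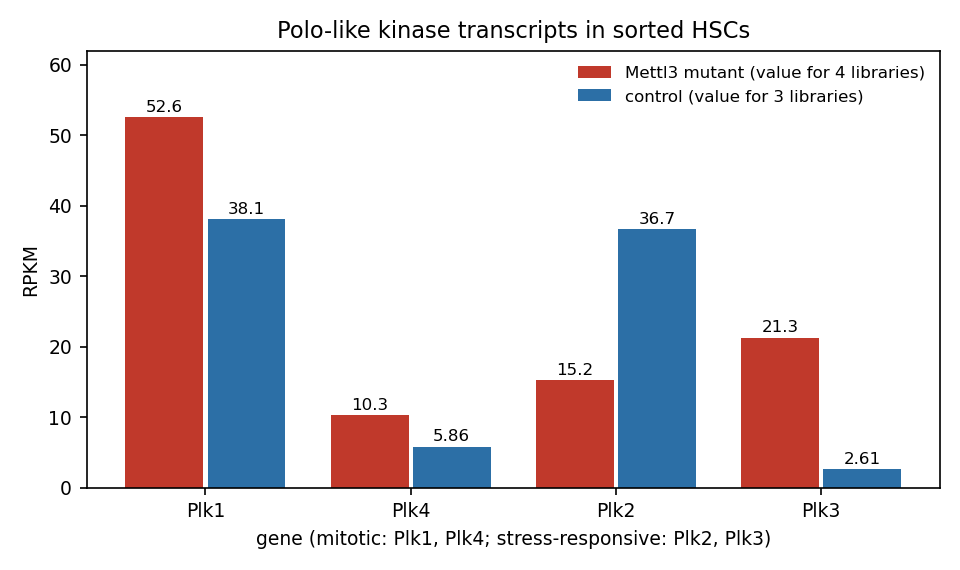
RPKM (vertical axis) of the 4 Plk genes in Mettl3 mutant (left bar of each pair) and control HSCs (right bar), 1 deposited value per group and no error bars because none can be had. Plk3 stands at 21.3 RPKM in mutants against 2.61 RPKM in controls and Plk2 at 15.2 RPKM in mutants against 36.7 RPKM in controls, while Plk1 and Plk4 are both higher in mutants.

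Plk1 (NCBI Gene 18817, chromosome 7, 122159435 to 122169884, GRCm38.p6) had 52.6 RPKM in mutants and 38.1 RPKM in controls. It had the highest level of the family in both groups, higher than 83.5% of genes with reads in mutants and 79.7% in controls. Of those 6607 genes, 1209 (18.3%) had a larger log2 ratio than Plk1, so a difference of this size was common in the table.

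Plk4 (NCBI Gene 20873, chromosome 3, 40799951 to 40816883) was at 10.3 RPKM in mutants and 5.86 RPKM in controls. Of the same 6607 genes, which Plk4 joined by its mutant value alone, 566 (8.57%) had a larger ratio. Among all 14539 genes with reads it ranked 1270 from the highest ratio. The Plk1 to Plk4 ratio of levels was 5.11 in mutants and 6.50 in controls, so Plk1 was several times the higher of the mitotic members in both groups.

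Plk2 (NCBI Gene 20620, chromosome 13, 110395044 to 110400844) was at 15.2 RPKM in mutants and 36.7 RPKM in controls, 41.5% of the control value. It ranked 293 from the lowest ratio among 14539 genes with reads, and 94 (1.42%) of the genes of at least 10 RPKM lay lower. In controls Plk2 was nearly level with Plk1 (Plk1 to Plk2 ratio 1.04), and in mutants Plk1 was 3.45 times as high.

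Plk3 (NCBI Gene 12795, chromosome 4, 117128655 to 117133963) was at 21.3 RPKM in mutants and 2.61 RPKM in controls. It ranked 8 from the highest ratio among genes with reads, and 4 of the genes of at least 10 RPKM in 1 group, a minimum that Plk3 reached in mutants only, lay higher. Its level was above 69.8% of genes with reads in mutants and 35.7% in controls. On its annotated transcript of 2378 bases the control value would correspond to between 122 reads in the smallest and 193 in the largest control library, and the mutant value to between 1301 and 1909 reads in a mutant library, had each library carried the group's value. These equivalents rest on the inferred library sizes, amplified reads are not independent molecules, and which libraries carried the reads cannot be read from a group value.

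The order of levels within the family therefore differed between the groups. In mutants it ran Plk1, Plk3, Plk2, Plk4, and in controls Plk1, Plk2, Plk4, Plk3. Plk3 was 1.40 times as high as Plk2 in mutants, whereas in controls Plk2 was 14.0 times as high as Plk3. Of the summed RPKM of the 4 genes, Plk3 made up 21.4% in mutants and 3.14% in controls, Plk2 15.3% in mutants and 44.1% in controls, Plk1 52.9% in mutants and 45.8% in controls, and Plk4 10.4% in mutants and 7.04% in controls. The summed level itself was 99.4 RPKM in mutants and 83.2 RPKM in controls. Whether neighbours in either order differ beyond the spread between mice cannot be said from these values.

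Set as pairs, Plk1 and Plk4 summed to 62.9 RPKM in mutants and 43.9 RPKM in controls, and Plk2 and Plk3 to 36.5 RPKM in mutants and 39.3 RPKM in controls. The ratio of mutant to control sums was 1.43 for the mitotic pair and 0.930 for the stress-responsive pair, in which Plk2 and Plk3 lay on opposite sides. The mean log2 ratio of the mitotic pair minus that of the stress-responsive pair was -0.12, a mean in which the opposite values of Plk2 and Plk3 offset each other, while within the stress-responsive pair Plk3 exceeded Plk2 by 3.84 and within the mitotic pair Plk4 exceeded Plk1 by 0.26.

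**Figure D2:**
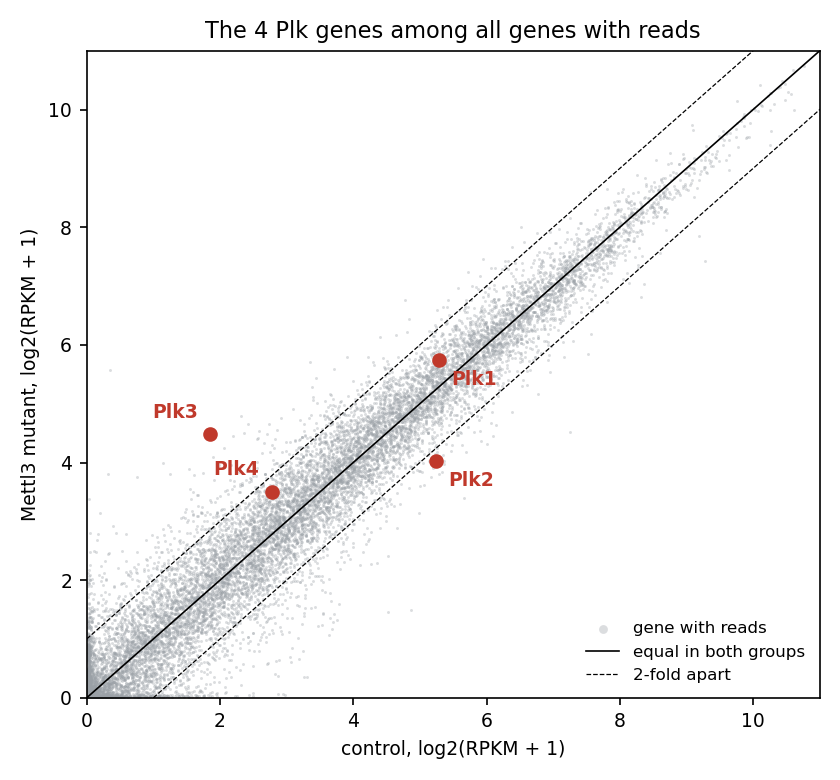
Each point is a gene with reads, with its control value on the horizontal and its Mettl3 mutant value on the vertical axis, both as log2(RPKM + 1), and the Plk genes in red. Plk3 lies well above the upper 2-fold line and Plk2 just below the lower one (log2 ratios 2.63 and -1.21), while Plk1 and Plk4 lie between the lines (0.46 and 0.72).

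Plk5, a further family member known mainly from brain and outside the set, sat at the offset in both groups, so no reads were found for it. The row named Plk1s1 is Kiz, a substrate of Plk1 and not a kinase of the family. The genes whose mutant and control values lay nearest to each member, by distance between log2(RPKM + 1) values over the 2 groups, included Tubg1 and Cox18 for Plk1 (distances 0.020 and 0.021), Sema4d, Ppp1r16a and Tec for Plk4 (0.004 to 0.02), Tcta, Snrpn and Dennd1c for Plk2 (0.09 to 0.12) and Zfp948, Tspan17 and Mrs2 for Plk3 (0.31 to 0.50). Zfp948, the nearest to Plk3, was at 18.1 RPKM in mutants and 3.19 RPKM in controls. With values of only 2 groups such likeness is a closeness of levels and nothing more, and for Plk3 no listed gene was close.

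The promoters of the 4 genes, from 250 bases before to 50 bases after the start of the RefSeq gene (GRCm38.p6), are shown because the mitotic pair and the stress-responsive pair are known for different kinds of control. They were searched on both strands for 5 motifs: the cell cycle gene homology region, known as CHR (TTTGAA), which represses mitotic genes in resting cells, its partner box CCAAT, an E2F-type box (TTNGCGC), the cyclic AMP response element, CRE (TGACGTCA), and the AP-1 site (TGANTCA). Capitals mark the matches, and each sequence runs 5′ to 3′ on the gene's strand.
Plk1, chr7:122159185-122159484, plus strand: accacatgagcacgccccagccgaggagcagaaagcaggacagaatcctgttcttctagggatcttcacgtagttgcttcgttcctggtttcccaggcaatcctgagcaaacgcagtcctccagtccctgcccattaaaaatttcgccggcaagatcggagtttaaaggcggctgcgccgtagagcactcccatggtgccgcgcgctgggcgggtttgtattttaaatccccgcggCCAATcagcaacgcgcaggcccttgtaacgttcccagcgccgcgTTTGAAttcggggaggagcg
Plk4, chr3:40799701-40800000, plus strand: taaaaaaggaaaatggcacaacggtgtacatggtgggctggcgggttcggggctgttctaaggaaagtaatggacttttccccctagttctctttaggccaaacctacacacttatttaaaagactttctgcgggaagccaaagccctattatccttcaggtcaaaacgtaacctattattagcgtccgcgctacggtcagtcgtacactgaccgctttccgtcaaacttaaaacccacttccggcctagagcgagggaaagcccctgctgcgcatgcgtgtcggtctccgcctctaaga
Plk2, chr13:110394794-110395093, plus strand: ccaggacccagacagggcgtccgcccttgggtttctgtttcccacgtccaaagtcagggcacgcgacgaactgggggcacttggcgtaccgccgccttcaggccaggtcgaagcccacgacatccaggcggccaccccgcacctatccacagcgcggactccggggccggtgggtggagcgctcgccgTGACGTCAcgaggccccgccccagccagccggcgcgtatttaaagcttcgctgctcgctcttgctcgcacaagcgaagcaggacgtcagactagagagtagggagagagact
Plk3, chr4:117133914-117134213, minus strand: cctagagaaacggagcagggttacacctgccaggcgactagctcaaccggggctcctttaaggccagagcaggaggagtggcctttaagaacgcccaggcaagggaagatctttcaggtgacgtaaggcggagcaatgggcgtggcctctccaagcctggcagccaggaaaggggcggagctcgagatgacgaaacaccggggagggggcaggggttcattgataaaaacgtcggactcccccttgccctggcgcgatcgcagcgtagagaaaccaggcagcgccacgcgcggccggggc

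In Plk1 the CCAAT box began 14 bases before the start and the CHR at base 31 after it. Of 32851 RefSeq promoters of this length, 37.4% held a CCAAT box and 17.9% a CHR. Plk2 held 1 CRE, beginning 62 bases before the start, a motif found in 1.79% of the promoters. Plk4 and Plk3 held none of the 5 motifs in this window, and the E2F-type box (6.36% of promoters) and the AP-1 site (7.81%) were in none of the 4. Only exact matches were counted. Variants were not searched for, such as TGACGTAA in the Plk3 promoter, which differs from the CRE by 1 base. The letters G and C made up 57.7% of the Plk1 promoter, 50% of Plk4, 66.3% of Plk2 and 62.7% of Plk3, beside a median of 52.7%.

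The transcripts were searched on the sense strand for GGACT, the sequence most often methylated by the Mettl3 complex, and for TATTTAT, the core of an AU-rich element, a signal of rapid mRNA decay when in a 3′ UTR. For each gene the coding transcript of GENCODE M21 with the longest coding part was used, and 12254 coding genes with reads served as background. Methylation was not measured in these libraries. The GGACT nearest to the stop codon of each member, which is where m6A is known to be frequent, is shown with 9 bases on either side and the motif in capitals.
Plk1, 14 bases after the stop codon: ctctccttcGGACTggtgcccct
Plk2, 48 bases after the stop codon: gacctcatgGGACTcttttccac
Plk4, 318 bases before the stop codon: acagttgaaGGACTtggccacac

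Plk3 had no GGACT in its 2378 bases, as had 8.74% of the background genes. Plk4 had 12, or 3.45 per kilobase (higher than 98.9% of genes), Plk2 6, or 2.14 per kilobase (90.2%), and Plk1 4, or 1.82 per kilobase (83.5%), beside a median of 1.05. Within 200 bases of the stop codon, where 39.7% of genes had the motif, Plk1 and Plk2 had 2 each and Plk4 none. The shorter core GGAC occurred 7 times in Plk3, or 2.94 per kilobase, against a median of 4.24 over the background, so the Plk3 transcript was not without the core. Plk3 was thus the member without GGACT and the member with the highest ratio, and with 4 genes no relation between these can be tested.

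The 3′ UTRs were short in all 4 members, 283 bases in Plk1, 466 in Plk4, 620 in Plk2 and 332 in Plk3, where the median was 899. TATTTAT, overlapping matches included, occurred 3 times in the 3′ UTR of Plk3, 2 times in Plk2, once in Plk4 and not in Plk1. At least 1 match was found in 26.3% of genes, at least 2 in 8.81% and at least 3 in 3.21%. The match nearest to the stop codon is shown for each, in capitals.
Plk3, 235 bases after the stop codon: gggggcatTATTTATggaccact
Plk2, 521 bases after the stop codon: aaacttttTATTTATtacagccc
Plk4, 384 bases after the stop codon: atattttaTATTTATttttatag
The stress-responsive members thus both carried this decay-type motif more than 1 time, while their RPKM differed in opposite directions.

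The nearest genes on the chromosome that were above 1 RPKM in both groups stood apart in ratio from the Plk gene beside them. Plk2 had no such neighbour. Plk3 overlaps Tctex1d4, on the opposite strand, by 84 bases, and Smart-seq2 reads do not record strand. Tctex1d4 was at 1.48 RPKM in mutants and 2.06 RPKM in controls, and reads within the overlap were not examined. Beside Plk4, Hspa4l, a heat shock protein gene, was at 9.30 RPKM in mutants and 18.9 RPKM in controls and Mfsd8, a lysosomal membrane protein gene, at 6.69 RPKM in mutants and 7.74 RPKM in controls, so both ran the other way from Plk4. Beside Plk1, Dctn5, a dynactin subunit gene, was at 131 RPKM in mutants and 160 RPKM in controls, and Ern2, whose end lies 9 bases from that of Plk1, sat at the offset. The gene of the table nearest to Plk2 lies 37824 bases away, and both its neighbours, Gapt and 3110015C05Rik, were below 1 RPKM in both groups.

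**Figure D3:**
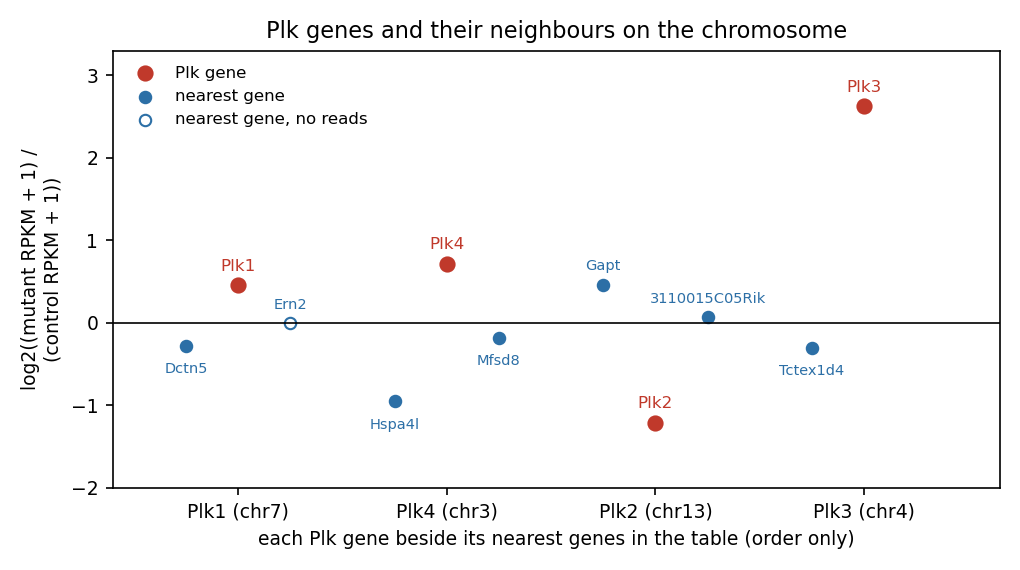
Log2((mutant RPKM + 1) / (control RPKM + 1)) on the vertical axis for each Plk gene (red) beside its nearest genes of the table (blue, open where it had no reads). Neighbours lie between -0.95 (Hspa4l) and 0.46 (Gapt), and Tctex1d4, the 1 neighbour drawn for Plk3, is not near its 2.63.

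The genes around Plk1 at mitotic entry, a list that holds its activators together with its targets, antagonists and other regulators, were more often higher than lower in mutants. Of 20 listed genes, 14 were higher and 6 lower. On the scale with 1 RPKM added, which all list counts use, 2 were at least 2-fold higher (3.67% over all genes with reads) and none 2-fold lower. The median log2 ratio was 0.47, where all genes with reads had 0.02 and 52.6% were higher. Bora, the cofactor with which Aurora A activates PLK1 in human cells and which the table lists as 6720463M24Rik, was at 40.7 RPKM in mutants and 17.9 RPKM in controls. Aurka, Aurora A itself, was at 62.1 RPKM in mutants and 50.3 RPKM in controls. Ccnb1, the cyclin of mitotic entry, had 43.4 RPKM in mutants against 26.7 RPKM in controls, and its kinase Cdk1 had 88.9 RPKM in mutants against 56.4 RPKM in controls. The phosphatase genes Cdc25a (6.35 RPKM in mutants, 2.58 RPKM in controls) and Cdc25c (20.2 RPKM in mutants, 10.4 RPKM in controls), which release CDKs from inhibition, and Fbxo5 (46.5 RPKM in mutants, 25.5 RPKM in controls), an inhibitor of the anaphase-promoting complex that PLK1 marks for destruction, were the others farthest apart.

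Partners and substrates of Plk1 at kinetochores, spindle and midbody followed the same direction in 16 of 22, with 6 lower, where 52.6% of all genes with reads were higher. Of the 22, 5 were at least 2-fold higher, beside 3.67% over all genes, and the median was 0.42. None of the 22 was below 1 RPKM in both groups, while 2957 of all genes with reads were and cannot reach 2-fold on this scale. Sgol1, shugoshin, which guards centromeric cohesin, was at 18.0 RPKM in mutants and 6.02 RPKM in controls. Ect2, the exchange factor that starts cytokinesis, was at 9.02 RPKM in mutants and 2.80 RPKM in controls and Ercc6l, a DNA translocase that binds PLK1, at 3.98 RPKM in mutants and 1.11 RPKM in controls. Bub1, a checkpoint kinase that docks PLK1 at kinetochores, was at 14.6 RPKM in mutants and 6.44 RPKM in controls. The fifth of these genes, named after its value was seen, was Kif2c, a microtubule depolymerase, at 21.4 RPKM in mutants and 9.86 RPKM in controls. Plk1 itself, at 0.46, lay near the medians of both lists.

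The centriole genes around Plk4 were less of one direction. Of 20, 12 were higher and 8 lower, none was 2-fold apart once 1 RPKM was added, and the median was 0.19 with a mean of 0.06. The count of higher genes was not far from the share over all genes with reads (52.6%). Without the added RPKM, Stil was 2.07-fold higher and Rttn 3.08-fold, Ccp110 2.92-fold and Cntrob 2.22-fold lower, all of them genes of low level. Stil, which activates the kinase, was at 3.72 RPKM in mutants and 1.80 RPKM in controls, Sass6, of the cartwheel of new centrioles, at 4.96 RPKM in mutants and 3.24 RPKM in controls and Cep152, which brings Plk4 to the centriole, at 1.89 RPKM in mutants and 1.54 RPKM in controls. Rttn (0.865 RPKM in mutants, 2.67 RPKM in controls), Cntrob (2.39 RPKM in mutants, 5.30 RPKM in controls) and Ccp110 (0.491 RPKM in mutants, 1.43 RPKM in controls, listed as 6330503K22Rik), genes of later centriole assembly and capping, were lower in mutants. Plk4 at 0.72 stood above all but 1 of the 20, Stil at 0.75.

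Genes that carry the signal from extra centrosomes to p53 were mixed. Of 5, 2 were higher and 3 lower, where 52.6% of all genes with reads were higher. The median was -0.01 and the mean 0.09, so the sign depends on the summary. Usp28, a deubiquitinase that works with 53BP1, was at 8.46 RPKM in mutants and 3.52 RPKM in controls. It was the 1 gene at least 2-fold apart with 1 RPKM added (7.14% over all genes with reads). Trp53bp1, which encodes 53BP1, was at 6.44 RPKM in mutants and 8.36 RPKM in controls. Pidd1, the sensor of extra centrosomes, listed as Lrdd, was at 3.83 RPKM in mutants and 6.45 RPKM in controls, and Cradd, its adaptor to caspase 2, at 7.54 RPKM in mutants and 5.73 RPKM in controls.

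Serum- and stress-induced early genes, the class in which Plk2 and Plk3 were first described, were lower in mutants in 19 of 23 with reads and higher in 4, with 13 at least 2-fold lower (3.47% over all genes with reads), none 2-fold higher and a median of -1.11. Over all genes with reads 52.6% were higher in mutants. Plk2, at -1.21, lay close to the median of the early genes. Plk3, at 2.63, lay above every gene of the list, whose highest value was 0.36. Fos, an AP-1 subunit, was at 171 RPKM in mutants and 617 RPKM in controls and Egr1, a zinc finger factor, at 52.6 RPKM in mutants and 120.1 RPKM in controls. The genes farthest apart beside Fos were the transcription factor genes Atf3 (1.35 RPKM in mutants, 10.6 RPKM in controls), Klf2 (4.35 RPKM in mutants against 21.9 RPKM in controls) and Fosb (2.44 RPKM in mutants against 11.6 RPKM in controls).

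p53 response genes were higher in mutants in 17 of 21 with reads and lower in 4, where 52.6% of all genes were higher, and the median was 0.32. At least 2-fold higher was 1 of the 21 and at least 2-fold lower another 1, shares near those over all genes (3.67% and 3.47%). Trp53 itself was at 206 RPKM in mutants and 228 RPKM in controls and Cdkn1a, the CDK inhibitor p21, at 14.2 RPKM in mutants and 12.2 RPKM in controls. Tnfrsf10b, a death receptor gene, was at 2.39 RPKM in mutants and 0.262 RPKM in controls, and the antiproliferative gene Btg2, which is also on the early gene list, at 22.1 RPKM in mutants and 58.8 RPKM in controls. Gadd45a, a growth arrest gene, at 8.61 RPKM in mutants and 16.3 RPKM in controls and Ddit4, an inhibitor of mTORC1, at 0.789 RPKM in mutants and 2.06 RPKM in controls were lower too. Plk2 (-1.21) lay below 20 of the 21 and Plk3 (2.63) above all 21. Of the 5 DNA damage checkpoint kinase genes Atm, Atr, Chek1, Chek2 and Prkdc, 4 had the larger value in mutants and none was 2-fold apart, and their median log2 ratio was 0.24. Prkdc, at 4.48 RPKM in mutants and 2.87 RPKM in controls, differed most, and Chek2, at 35.4 RPKM in mutants and 37.7 RPKM in controls, was the lower one.

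Transcripts of 10 proteins reported as substrates of Plk2 or Plk3, mostly in human or rat cells, had a median of 0.35, with 8 higher and 2 lower in mutants and none 2-fold apart with 1 RPKM added. All genes with reads had a median of 0.02, with 52.6% higher and 7.14% 2-fold apart. Ccne1, cyclin E1, was at 29.5 RPKM in mutants and 14.5 RPKM in controls, and Sipa1l1, the postsynaptic protein SPAR, at 3.81 RPKM in mutants and 2.38 RPKM in controls. Cdc25c, given above, is also on this list, and Chek2 and Cenpj appear on another list too, so the lists are not independent.

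**Figure D4:**
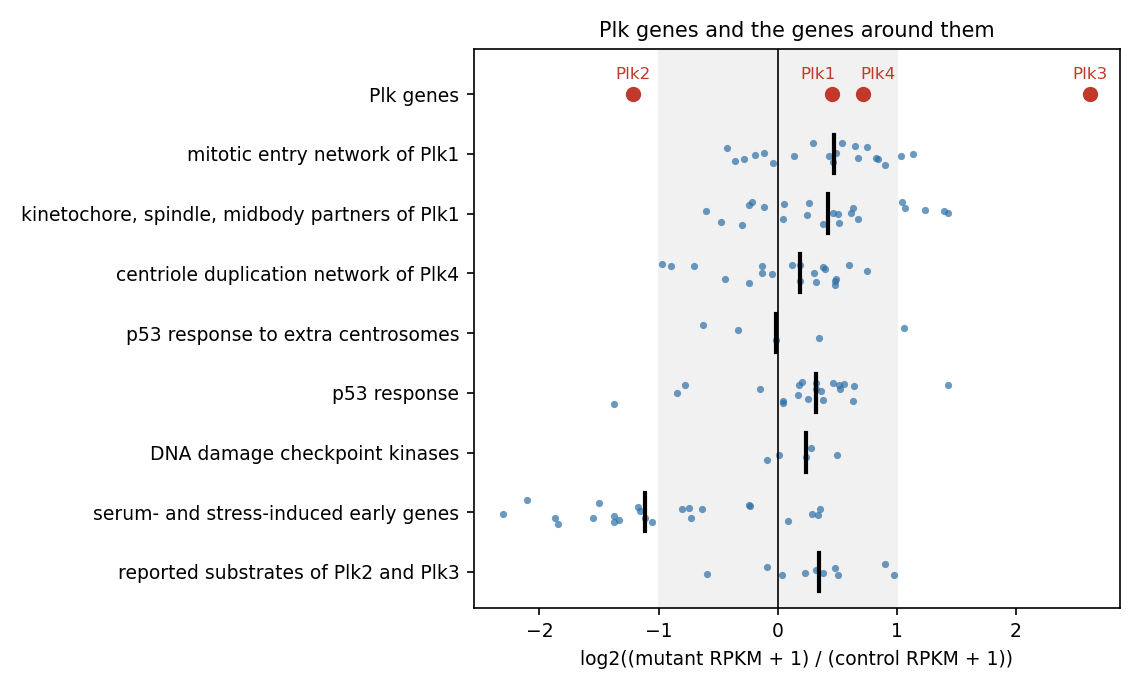
Log2((mutant RPKM + 1) / (control RPKM + 1)) on the horizontal axis for the Plk genes (red, top) and for each gene with reads of 8 lists (blue), with the list median as a black bar and the range within 2-fold in grey. The 2 lists around Plk1 centre at 0.47 and 0.42 and the early genes at -1.11, and Plk3 at 2.63 lies to the right of every listed gene.

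Markers of other cells were read beside these values. Of 5 markers of progenitors, the gate as stated names only CD48. Il7r was at the offset, and Cd34, of multipotent progenitors, was at 136 RPKM in mutants and 113 RPKM in controls. Flt3 was at 4.71 RPKM in mutants and 9.76 RPKM in controls. Fcgr3, at 0.0239 RPKM in mutants and 0.0358 RPKM in controls, was at or near the offset in both groups, so its 2 values are not compared. The summed level of those 5 was 145 RPKM in mutants and 128 RPKM in controls. Most of it was Cd34, which the gate does not name, so the sum does not measure cells outside the gate. The HSC markers were lower in mutants in 7 of 10, where 52.6% of all genes with reads were higher. Their summed level was 569 RPKM in mutants and 804 RPKM in controls. Of 9 markers of T and NK cells 5 were at the offset, Cd3e and Cd8a among them, and the summed level was 64.4 RPKM in mutants and 127 RPKM in controls, nearly all of it Nkg7. Of 6 B cell markers 4 were at the offset, Cd79a and Pax5 among them, and the sums of 133 RPKM in mutants and 132 RPKM in controls were nearly all Cd79b. The sums were 3.92 RPKM in mutants and 2.80 RPKM in controls for macrophage markers (2 of 6 at the offset, Csf1r among them) and 7.28 RPKM in mutants and 14.6 RPKM in controls for granulocyte markers (2 of 7 at the offset, Ltf and Ngp). They were 73.1 RPKM in mutants and 62.2 RPKM in controls for erythroid markers (2 of 6 at the offset, Hba-a1 among them) and 215 RPKM in mutants and 206 RPKM in controls for megakaryocyte markers, none of which was at the offset. The part of these cells in the Plk values was not tested.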

How the data were processed

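RNA was measured by Smart-seq2 in 7 libraries of 150 sorted HSCs (4 mutant, 3 control). The deposited unit is RPKM with a single column for each group, per the file headers, so the authors had already pooled the replicates. The submitters' processing notes name mm10, Picard and edgeR. The sources used here give neither the roles of these tools nor the aligner, the annotation or the averaging. Among 23038 genes, 22959 had their identifier in RefSeq (GRCm38.p6).

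From these values, ratios and log2 ratios with a pseudocount of 1 RPKM were computed with Python 3.11.15, pandas 2.3.3 and NumPy 2.4.6. Genes whose mutant/control ratio was 0.841 (relative tolerance 1e-06) were read as genes without reads. The ratio is that of the offsets, 0.0349 RPKM in mutants and 0.0414 RPKM in controls for a gene of 1 kb. In genes at the offset in 1 group, the commonest small increments of the other group's values, as many as its libraries and together equal to 1 offset, gave the library sizes; they cannot be tied to mice. The steps were run on simulated data built with the same model of reads, offset and averaging that they assume. That run cannot show whether the deposited values were made in this way. Labels give the samples as separate mice, but no p-value could be computed. Members and lists were chosen with earlier results of these data known. List symbols were matched to the symbols of the table. Those absent there were matched by NCBI Gene identifier, through current symbols and synonyms, and Ly6g alone was not found.

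Named genes were the members, Plk5, Mettl3, the nearest gene on each side, the 3 nearest by values, and of each list around the Plk genes the 4 farthest apart plus 11 fixed regulators. Markers were named to describe the sort. A few genes that this rule takes are not reported here. The TATTTAT and GGACT searches were chosen after the values were known. Planned protein comparisons were not made. Promoters came from RefSeq and transcripts from GENCODE M21, and no column of per-sample values was used.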

Additional observations from a re-analysis of the deposited data

How the results depend on the processing

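Pseudocounts of 0.1 RPKM and none, division of the mutant column by the median ratio (1.02) and scaling to equal sums left the direction of each of the 4 Plk genes as reported. Over these settings the log2 ratio ran from 2.60 to 3.03 for Plk3, from 0.70 to 0.81 for Plk4, from 0.43 to 0.47 for Plk1 and from -1.27 to -1.20 for Plk2. Plk3 stayed at least 2-fold higher and Plk2 at least 2-fold lower in each. Pseudocounts cannot turn a direction, and the scalings moved all genes by only -0.02 and 0.01 on the log2 scale, so this agreement was fixed by construction. The number of genes at least 2-fold apart did depend on the setting: 1508 higher and 1347 lower with 0.1 RPKM, 1981 higher and 1674 lower with none, because low genes then pass, and 222 higher and 163 lower with a minimum of 10 RPKM, where fewer genes are counted. Of the counts, 6 moved by over 1.5 times. Among small log2 values, the centriole list's median of 0.19 became 0.12 with a minimum of 10 RPKM and 0.06 as a mean, the kinetochore list's 0.42 became 0.26 with that minimum, the p53 response list's 0.32 became 0.19 as a mean, and the difference between the pairs (-0.12) became -0.23 with 0.1 RPKM and -0.24 with no pseudocount. Each of these shifts is under 1.5-fold in the ratio itself. The median of -0.01 for the list from abnormal centrosome number to p53 ran from -0.04 to 0.09. The medians of the lists kept their sign under these settings, and taking the mean in place of the median turned the sign only for the 5 genes between centrosome number and p53 (mean 0.09). No paired analysis was possible because the deposited columns hold 1 value per group. Leaving out libraries, count models and other normalizations need values per library and were not run. The depth behind a value was read indirectly, and the spread between mice, the main limit, is unknown.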
